A study of Citrus unshiu with 6 samples.

Results

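Peel with roughing disorder was compared with control peel at 30 days after full bloom (DAFB), the cell division stage of the fruit, over 17419 of the 23099 genes with a value in the series. A gene entered when its FPKM, the number of sequenced fragments scaled to the length of the transcript and to the mapped reads of the library, was at least 1 in the higher of the libraries RD30 (rough peel) and CK30 (control peel). All peel came from “Yamashitabeni wase” Satsuma mandarin grafted on trifoliate orange. Roughing was brought about by stripping most young fruits from a tree and leaving fruits that pointed upward, and the control trees kept their fruits. Tree, fruit load and fruit position are confounded with the disorder and cannot be told apart from it. Each library was 1 pool of 3 peel samples, so the libraries give no replicate check or SD. No test was run here, and every difference given is between 2 pools. By PCR in 3 biological replicates, the study followed genes of gibberellin signalling and reported patterns similar to sequencing, with some differences in amount. Its PCR values were not used here. The log2 ratio of RD30 to CK30 had its median at 0.43 (15762 genes at 1 or more in both), and it was read on 2 scales, as given and minus that median. A gene is called higher or lower here when it differed at least 2-fold in the same direction on both scales. As the median was positive, the scale minus the median set the calls of higher, and the scale as given set those of lower. The limit was thus stricter for higher than for lower, and counts of either are to be read against the shares of all genes.

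Citrus peel consists of an outer flavedo, green in young fruit and rich in oil glands, and an inner white albedo whose cells divide and then enlarge. Its growth is set by hormones such as gibberellin, auxin and cytokinin, by transcription factors that control division, and by enzymes that loosen or build the cell wall. In roughing the peel becomes thick and coarse. As the samples hold the whole peel, fewer cells of a type and less RNA per cell cannot be told apart in any of the values.

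As given, genes with a 2-fold higher value in RD30 outnumbered those with a lower one, and the balance was smaller relative to the median. As given, 4458 genes (25.6%) were higher and 1104 (6.34%) were lower, and 11857 did not reach 2-fold. Minus the median, 2421 (13.9%) were higher and 1873 (10.8%) were lower. On both scales, 2421 genes (13.9%) were higher and 1104 (6.34%) were lower, and these shares are the background for the groups below. Among the called genes, 1375 of the higher and 541 of the lower ones had no named protein match. The 165 genes that entered at an FPKM of 1 to 1.1 had a median log2 ratio of 0.97, and the 202 that were left out at 0.9 to 1 had 0.76.

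The direction depended on the level of the gene. Genes at a geometric mean FPKM of 2 to 5 in both libraries had a median log2 ratio of 0.77, and 39.7% were at least 2-fold higher and 4.49% lower as given. At 1 to 2 FPKM, where the minimum of 1 in both libraries limits the ratios that can occur, the median was 0.47. There 20.1% were higher, so the ratio did not fall steadily with level. At 10 to 20 FPKM the median was 0.45, and at 50 to 100 FPKM it was 0.07. At 100 FPKM or more the median was −0.07, with 11.6% higher and 15.8% lower. Of the total FPKM, the top 1000 genes took 57.6% in CK30 and 51.5% in RD30. A further scale, chosen after the data were seen, was therefore added, in which each log2 ratio was taken minus the median of the genes nearest in level. On it 2191 genes (12.6%) were higher and 1770 (10.2%) were lower.

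**Figure D1:**
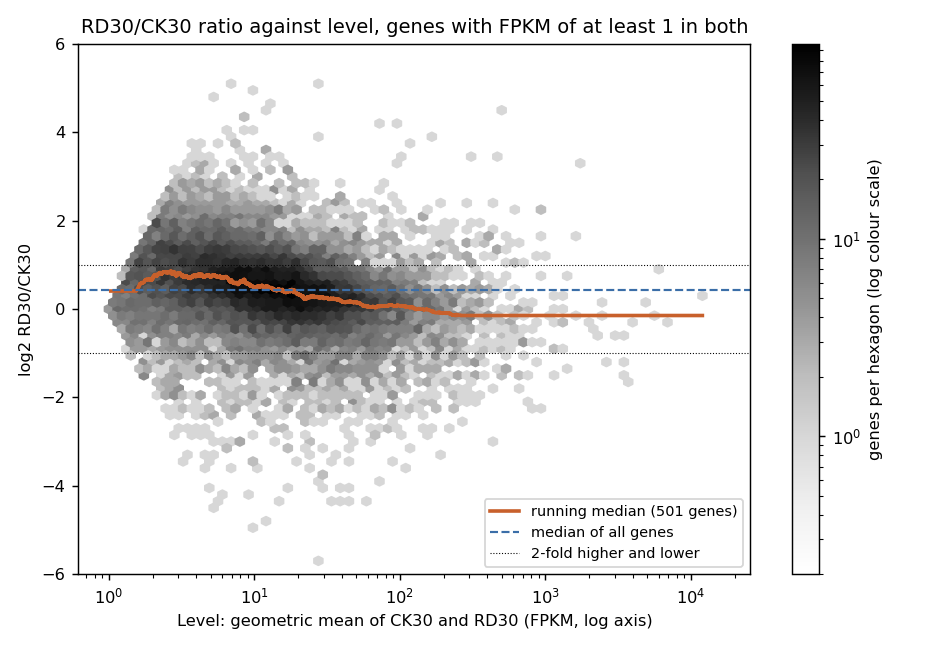
Log2 ratio of RD30 to CK30 (vertical axis) against the geometric mean FPKM of both libraries (horizontal axis, log scale), with the number of genes per hexagon in grey, the running median in orange, the median of all genes (0.43) as a dashed line and 2-fold limits as dotted lines. The running median lies above the dashed line over most low levels, though not at the lowest end, and falls to about 0 for abundant genes.

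Genes were also grouped by the names of their protein matches into 87 lists, which held 2802 of the entered genes. Of these lists, 39 had more members higher than lower on all 3 scales and 10 had more lower than higher on all 3. All entered genes also had more higher than lower on these scales (25.6% and 6.34%, 13.9% and 10.8%, 12.6% and 10.2%). A list that follows all genes would thus count among the 39. A further 19 lists turned from more members higher than lower as given to more lower than higher minus the median. Among them were the kinesins, the ubiquitin ligases and the LRR receptor kinases. Of 40 kinesins, 3 were higher and 2 lower as given, and 1 and 6 minus the median. Near the upper end stood TCP factors (median log2 1.80), small heat shock proteins (1.84), homologs of ACC oxidase (1.76), the genes of the light reactions (1.58) and of protein folding in the endoplasmic reticulum (1.58). Relative to genes of like level these medians were 1.12, 1.65, 1.04, 1.41 and 1.73, so the order changed. The lists of ACC oxidase homologs and of protein folding were drawn up after the values had been seen. Their place in the order is therefore no independent result. Near the lower end stood xyloglucan enzymes (−2.20), jasmonate synthesis and TIFY genes (−0.31) and class III peroxidases (−0.22).

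**Figure D2:**
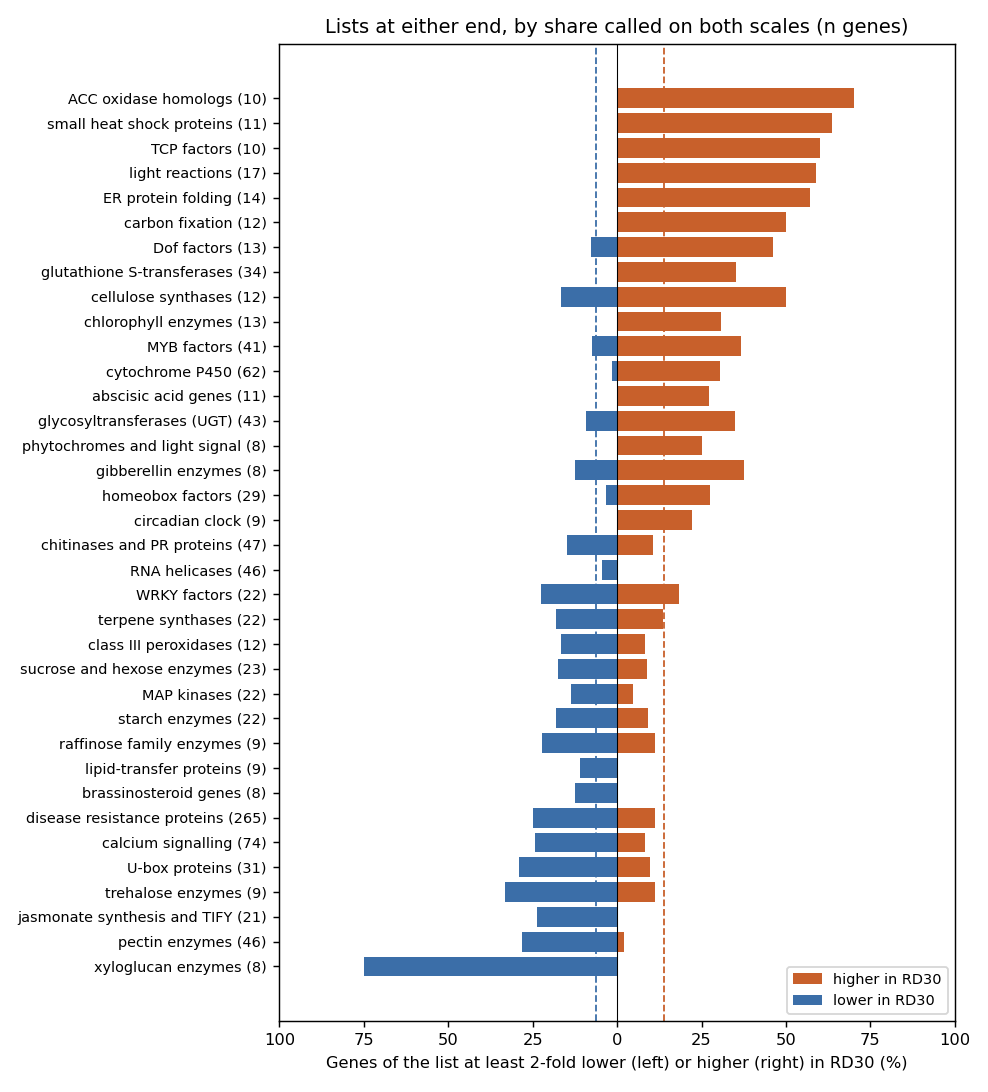
Share of the genes of a list (%) called higher (right, orange) or lower (left, blue) in RD30 on both scales, for 36 lists with at least 8 entered genes, 18 from each end of the order by the difference of the shares, with the number of genes in brackets and the shares of all genes (13.9% and 6.34%) as dashed lines. ACC oxidase homologs and small heat shock proteins stand at the top, and xyloglucan enzymes, with 75% lower, at the bottom. Lists drawn up after the values had been seen, such as the ACC oxidase homologs and endoplasmic reticulum folding, hold a place that is no independent result.

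Of the photosynthesis genes, those called were all higher in rough peel. Of 17 genes of the light reactions 10 were called higher and none lower, and their summed FPKM was 6277 in CK30 against 13712 in RD30. Of 12 genes of carbon fixation 6 were called higher and none lower. The chloroplast carbonic anhydrase Cs2g28060, which supplies bicarbonate and CO2 inside the plastid, had an FPKM of 4.50 in CK30 against 156 in RD30. This was a log2 ratio of 5.11. The small subunit of Rubisco (Cs6g18680), a part of the enzyme that fixes carbon, had 912 and 2865. Its activase (Cs6g06660) had 15.2 and 93.5. The plastid aldolase 2 (Cs8g08710), an enzyme of the Calvin cycle that is not in the list, had 190 and 1048. All 4 genes were called, each at least 3-fold higher in RD30.

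Within the light reactions, the antenna protein CP24 of photosystem II (orange1.1t03504) had an FPKM of 168 in CK30 against 661 in RD30. Photosystem I subunits V (Cs4g07650) and VI-2 (Cs1g15170) had 194 and 217 in CK30 against 585 and 649 in RD30. The most abundant member, chlorophyll a-b binding protein 3C (Cs2g03780), had 4395 and 8291, a log2 ratio of 0.92 that stayed under 2-fold. Outside the list, the early light-induced protein Cs9g07680, of a family that binds pigment under light stress, had 453 and 2156. Of 13 enzymes of chlorophyll metabolism 4 were called higher and none lower, and 8 were 2-fold higher as given. Subunit ChlH of magnesium chelatase (Cs9g13460), which starts the chlorophyll branch, had 44.6 and 149, whereas protochlorophyllide reductase (Cs1g06850), with 130 and 347, was 2-fold higher only as given.

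Of the lists for plastid gene expression, the sigma factors lay furthest above the share of all genes called higher, 13.9%. All 5 plastid sigma factors, which direct the plastid RNA polymerase to its promoters, were at least 2-fold higher as given, and 4 were called. SigA (Cs7g15360) had an FPKM of 4.17 in CK30 against 14.6 in RD30, sigB (Cs7g15990) 5.54 and 18.9, and sigC (Cs4g18920) 3.27 and 11.3. SigF (orange1.1t02421), with 7.76 and 19.8, was 2-fold higher only as given. Pentatricopeptide repeat proteins, which edit and process RNA in plastids and mitochondria, had 53 of 260 members called higher (20.4%) and 8 lower (3.08%). These genes lie at low levels, and minus the median of genes of like level 39 were higher and 14 lower, against 12.6% and 10.2% of all genes. Plastid and mitochondrial ribosomal proteins had 1 of 33 members called higher (3.03%), the plastid 30S protein S1 (orange1.1t02357, 5.66 and 26.1), and none lower. Their share called higher was thus below that of all genes. Of 6 CONSTANS-LIKE zinc finger genes 3 were called higher, and of 8 phytochrome and light signal genes 2, with cryptochrome-1 (Cs3g18240), a blue light receptor, at 9.24 and 36.6.

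Most chaperones of the endoplasmic reticulum were higher in RD30. They fold new proteins that enter the secretory path, and calreticulin and calnexin bind those that carry sugar chains. Of 14 such genes that entered 8 were called higher and none lower. All 18 genes of the list had a summed FPKM of 1696 in CK30 against 6113 in RD30. Calreticulin (Cs3g15060) had 422 in CK30 against 1965 in RD30, the luminal-binding protein Cs5g01840 284 and 1393, and calnexin (Cs7g19400) 340 and 984. At 80 DAFB the same genes stood at 242 and 254, at 106 and 116, and at 167 and 177 in CK80 and RD80. RD30 thus held the highest value of each among these 4 libraries, and the peels were close at 80 DAFB. A co-chaperone of the same compartment in animals, dnaJ subfamily C member 3 (Cs6g04320), counted here with the DnaJ proteins, had 23.2 and 86.8. This list was drawn up after the values had been seen.

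Heat shock proteins, which keep other proteins from clumping, differed in both directions. Of 11 small heat shock proteins 7 were called higher and none lower. The class IV member Cs5g18500 had an FPKM of 1.36 in CK30 against 222 in RD30, and the class I member Cs6g07320 had 44.3 and 661. The abundant Cs4g05780, named only as a heat shock protein and not in that list, had 524 and 5163. Of 14 HSP70, HSP90 and ClpB proteins 6 were called higher and 3 lower. HSP83 (Cs5g03150), of the HSP90 family, had 21.6 and 404, and the HSP70 orange1.1t02795 had 31.8 and 448. Lower were another HSP90 (Cs4g08220), at 2139 and 431, and the heat shock cognate proteins Cs8g18260, at 915 and 312, and Cs7g29040, at 60.9 and 2.32. The HSP83 gene thus lay far below Cs4g08220 in CK30 and nearly level with it in RD30. Heat stress transcription factors had 3 of 10 called higher and 2 lower. Heat shock genes also respond to the handling of tissue, and its part in these results was not tested.

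**Figure D3:**
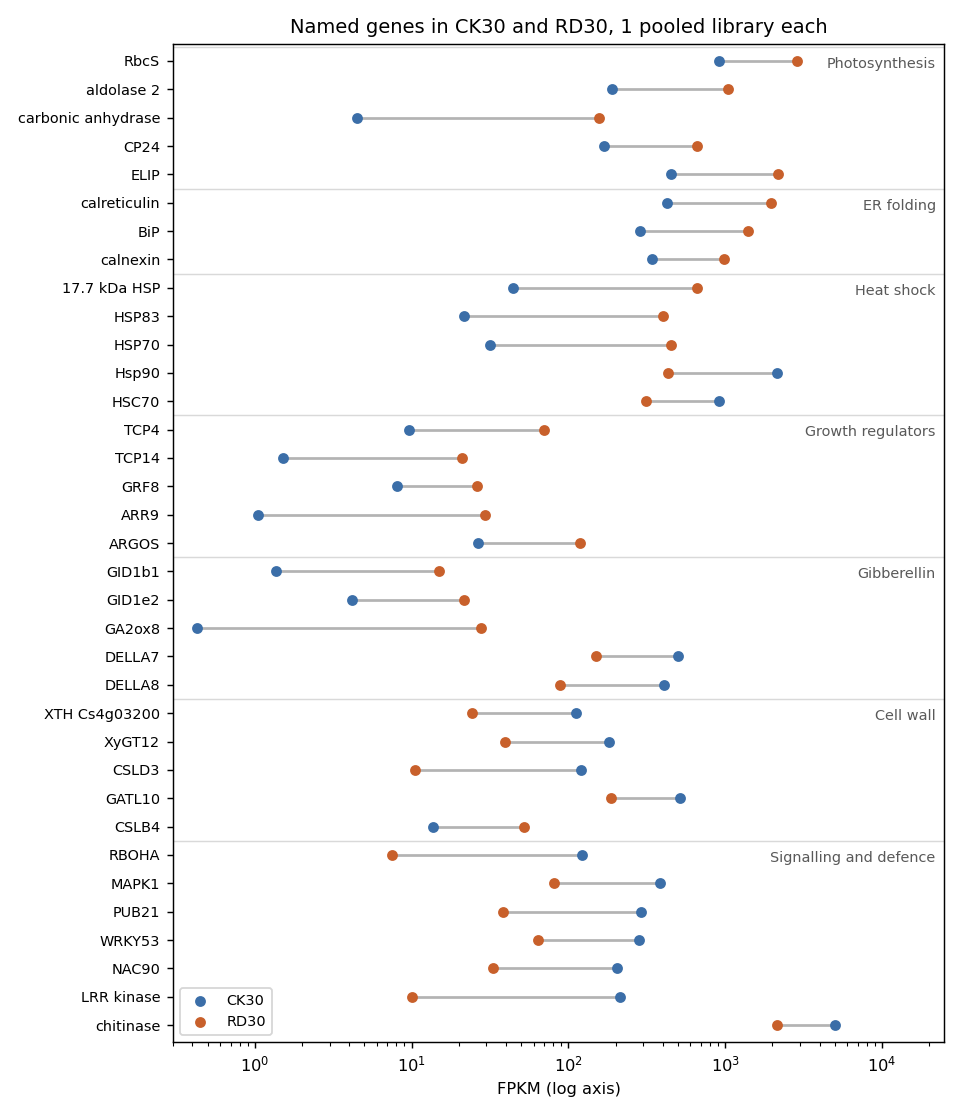
FPKM (log axis) of 35 genes in CK30 and RD30, in 7 groups by function, each gene drawn as a pair of points, 1 pooled library each. The genes were picked from those described in the text and do not stand for their families. The photosynthesis and endoplasmic reticulum genes drawn lie higher in RD30, and the heat shock genes lie on both sides. The signalling and defence genes drawn all lie lower, although their families had members called in both directions.

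Several families of growth transcription factors had more than 13.9% of members, the share of all genes, called higher. SPL factors had none of 5 called and a median log2 ratio of −0.46. Of 10 TCP factors, which set where and how long cells divide, 6 were called higher and none lower. TCP14 (Cs5g03980) had an FPKM of 1.51 in CK30 against 20.8 in RD30. TCP4 (Cs2g15820) had 9.61 and 69.8. Growth-regulating factors, known in Arabidopsis to promote division in young organs, had 2 of 5 members called higher, GRF8 (Cs5g01380, 8.08 and 25.97) and GRF2 (orange1.1t02555, 0.38 and 5.30). An AP2-like factor named after AINTEGUMENTA (Cs1g21310), a regulator of organ size in Arabidopsis, had 2.51 and 10.9. Of 29 homeobox factors 8 were called higher and 1 lower, with HAT22 (Cs1g21160) at 11.8 and 50.1 and HAT4 (Cs5g08460) at 6.50 and 30.0. Dof factors had 6 of 13 called higher and 1 lower, in a list not known to precede the values, so its count is no independent result. The lower one, DOF3.1 (Cs1g18580), was at the same time the most abundant of them in CK30, with 74.5 and 14.9.

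Larger families went both ways. Of 41 MYB factors 15 were called higher and 3 lower, and of 32 bHLH factors 10 and 6. MYB1R1 (Cs5g04740) had an FPKM of 110 in CK30 against 377 in RD30, while a second gene of that name (Cs5g08500) had 207 and 98.9. The bHLH factor bHLH96 (Cs3g13290) had 5.83 and 51.3, and bHLH92 (Cs9g08460) had 161 and 9.23. MADS-box genes had 3 of 20 called higher (15%, against 13.9% of all genes) and none lower. The most abundant was a gene named after FLOWERING LOCUS C (Cs5g10810), a repressor of flowering in Arabidopsis, at 60.8 and 231.

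The genes of division itself differed little beside these regulators. Of 26 cyclins and kinases of the cell cycle 1 was called higher and 2 lower, and their median log2 ratio was 0.42, close to that of all genes. Of 22 DNA replication enzymes none was called, of 40 kinesins 1 was called higher and 2 lower, and of 11 histones 1 was called higher. Cyclin-B1-2 (Cs6g18950) had an FPKM of 65.1 in CK30 against 94.6 in RD30, and histone H2A (Cs6g05830) had 118 and 202. The called cyclins were cyclin-D6-1 (Cs2g22640, 0.27 and 2.37), cyclin-A1-1 (Cs3g20020, 9.92 and 1.83) and cyclin-A2-1 (Cs4g20290, 8.10 and 3.54). Cytosolic ribosomal proteins, with none of 50 called higher and 1 lower, and the proteasome, with none of 18 called, also stayed near the median of all genes.

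Gibberellin promotes growth by binding the receptor GID1, which then removes DELLA proteins, the repressors of the response. The study selected its GID1, DELLA and bHLH genes on these samples, so their direction is not independent evidence. All 6 genes that it names as GID1 were called higher, and their summed FPKM was 12.7 in CK30 against 72.0 in RD30. GID1b1 (Cs8g05610) had 1.36 and 15, and GID1e1 (Cs5g34000) had 0.27 and 4.73. The values lie low, and the deposited protein matches call 4 of these 6 genes carboxylesterases and GID1e1 a dehydratase, enzyme families to which the receptor is related. GID2 (Cs3g23040), the F-box protein that marks DELLA for removal, had 29.9 and 61.0, which was 2-fold higher only as given.

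The 7 genes that the study names as DELLA were split by level. DELLA7 (Cs2g01990) had an FPKM of 502 in CK30 against 151 in RD30, and DELLA8 (Cs4g12130) had 404 and 88.1. Both were called lower, and they made up most of the summed FPKM of the 7 genes, which was 920 in CK30 against 285 in RD30. DELLA2 (Cs2g22130, 0.20 and 2.98), DELLA4 (Cs1g24030, 8.10 and 28) and DELLA5 (Cs7g32390, 3.96 and 12) were called higher, DELLA6 (Cs1g21500, 0.93 and 2.39) was 2-fold higher only as given, and DELLA1 (orange1.1t03259) did not reach an FPKM of 1. By their protein matches DELLA5 and DELLA7 are scarecrow-like proteins and DELLA6 is a SHORT-ROOT-like protein, all of the wider GRAS family. DELLA2, DELLA4 and DELLA8 have matches with no named function, and of the 7 only DELLA1 is matched to a DELLA protein. A further gene, matched to the DELLA protein GAI (Cs6g17530), had 5.92 and 51.3 and was called higher. The list of gibberellin receptors and DELLA by protein match had 2 entered genes. Its other gene (Cs2g16940), at a log2 ratio of 1.25, was 2-fold higher only as given. The lower sum thus rested on 2 abundant genes, and the match named GAI went the other way. Of the 6 bHLH genes that the study followed, 5 were called higher.

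GID1b1 and GID1e1, which were higher, and DELLA7 and DELLA8, which were lower, are shown by their PCR primers, which were not matched to a genome here. The sequences run 5′ to 3′ in lower case, with no part marked in capitals.
GID1b1 forward: tgtccaagtagcacaagtg
GID1b1 reverse: cattctccgcaacaaatacc
GID1e1 forward: gagaaagacccgatactgaa
GID1e1 reverse: acacgcctctattccttag
DELLA7 forward: ggaagcagtggagaatgaa
DELLA7 reverse: ccagttatgcggacaagt
DELLA8 forward: cttactcgtcttcttgtcctactg
DELLA8 reverse: tgctcctggctatcactca
The ACTIN gene (Cs7g28810), to which the study referred its PCR values, had 247 in CK30 against 215 in RD30, a log2 ratio of −0.20.

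Gibberellin enzymes had 3 of 8 genes called higher and 1 lower, and enzymes of synthesis and of inactivation were among the higher ones. Gibberellin 2-beta-dioxygenase 8 (Cs2g07550), of a family that inactivates gibberellin, had an FPKM of 0.43 in CK30 against 27.6 in RD30. Gibberellin 20 oxidase 1 (Cs5g03520) and ent-kaurene oxidase (orange1.1t01910), both of synthesis, had 0.85 and 9.21 in CK30 against 2.67 and 25.9 in RD30. Gibberellin 2-beta-dioxygenase 2 (Cs9g01770), the most abundant of the list, was lower, at 36.9 and 16.0.

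Cytokinin genes had 3 of 22 members called higher and 2 lower. The response regulators ARR9 (orange1.1t01850) and ARR15 (Cs5g04810), which are induced by cytokinin and dampen its signal, had an FPKM of 1.04 and 0.60 in CK30 against 29.3 and 10.2 in RD30. ARR4 (Cs7g07940), of the same type, was lower at 34.1 and 16.1. Cytokinin dehydrogenases, which degrade the hormone, also went both ways, number 5 (Cs3g25370) with 4.01 and 12.8 and number 1 (orange1.1t00627) with 3.41 and 0.96. Among 47 auxin response genes 9 were called higher (19.1%) and 4 lower (8.51%). The organ size gene ARGOS (Cs5g20520), induced by auxin in Arabidopsis, had 26.6 and 118. A small auxin-induced protein named 6B (orange1.1t04220) had 0.12 and 6.72, and the auxin-binding protein ABP19a (Cs1g17550), with 210 and 443, was 2-fold higher only as given.

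Homologs of ACC oxidase, a family of dioxygenases that resemble the last enzyme of ethylene synthesis, had 7 of 10 members called higher and none lower, in a list drawn up after the values had been seen. The values were low, as in Cs9g09030 with an FPKM of 3.25 in CK30 against 10.8 in RD30, and 3 of the called genes have neighboring identifiers, so close copies may have shared reads. Ethylene signal genes had none of 5 called. Ethylene response factors had 8 of 32 called higher and 2 lower. The lower factors were abundant, ERF017 (Cs4g06410) with 152 and 36.3 and ERF109 (Cs8g05910) with 113 and 31.2. Abscisic acid 8'-hydroxylase 4 (Cs8g05940), which breaks down abscisic acid, had 8.75 and 43.4.

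A minority of jasmonate genes were called, all of them lower. Of 21 genes of jasmonate synthesis and the TIFY repressors 5 were called lower (23.8%) and none higher, while 14 did not reach 2-fold and 2 were 2-fold higher as given only. Lipoxygenase 3-1 (Cs1g17380), which takes the first step, had an FPKM of 579 in CK30 against 56.6 in RD30. Allene oxide cyclase 4 (Cs6g18900), a later step, had 202 and 84.8, and TIFY10A (Cs1g17220), of a family that represses the response and is itself induced by jasmonate, had 215 and 73.2. The summed FPKM of the list was 2052 in CK30 against 1090 in RD30.

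Enzymes of xyloglucan, the polymer that ties cellulose fibers together, were lower in most members. Of 8 genes 6 were called lower (75%) and none higher, and 1 was 2-fold higher as given only. The xyloglucan endotransglucosylase/hydrolase Cs4g03050, which cuts and rejoins the chains, had an FPKM of 33.5 in CK30 against 0.46 in RD30, and Cs4g03200 had 111 and 24.4. Both carry the same protein match, so reads may have been split between them. Xyloglucan glycosyltransferase 12 (Cs3g16380), a synthesis enzyme, had 183 and 39.1. The list summed to 558 in CK30 against 158 in RD30. BRU1 (orange1.1t02385), named for its response to brassinosteroid and itself of the endotransglucosylase family, is not in the list and had 293 and 95.5.

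Pectin enzymes were called lower more often than higher. Of 46 genes 13 were called lower (28.3%) and 1 higher (2.17%), and 28 did not reach 2-fold as given. All 62 genes of the list, entered or not, had a summed FPKM of 4177 in CK30 against 2649 in RD30. The galacturonosyltransferase-like 10 gene (Cs2g28760), of a family that builds pectin, had 512 and 187. Of the 13 lower genes 7 belonged to that family, among them galacturonosyltransferase 8 (Cs5g27650, 274 and 89.9), named here after its values were seen. Pectinesterases, which remove methyl groups from pectin, went from 326 to 119 for Cs1g16560 and from 291 to 108 for Cs5g33450, while the most abundant gene, pectinesterase 3 (Cs1g16550), had 688 and 687. The single higher gene was a polygalacturonase (Cs9g13990), which cuts pectin, at 3.06 and 9.66. Minus the median of genes of like level, 16 of the 46 genes were lower and none was higher.

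Other wall genes were mixed. Cellulose synthases and their relatives had 6 of 12 members called higher and 2 lower. Cellulose synthase-like D3 (Cs3g09000), known in Arabidopsis from root hairs, had an FPKM of 120 in CK30 against 10.6 in RD30. A pair of B4-like genes, Cs1g03980 and Cs2g21100, had 13.8 and 15.5 in CK30 against 52.3 and 59.5 in RD30. Structural wall proteins had 5 of 31 called higher and 6 lower, with an extensin (Cs1g20150) at 428 and 113 and a glycine-rich protein (Cs5g34620) at 6.46 and 51.3. Of 8 expansins, which loosen the wall, 1 was called higher and 1 lower. Expansin-A1 (Cs5g10820) had 7.41 and 49.6, and the most abundant one, expansin-A5 (Cs6g21460), had 613 and 523. Outside these lists, glucuronoxylan 4-O-methyltransferase 1 (Cs2g25390), of xylan synthesis, had 12.8 and 0.93. Wax and cutin enzymes of the peel surface had 5 of 20 called higher and 2 lower, and a pair of HOTHEAD genes differed in opposite directions, Cs7g03710 with 2.29 and 7.65 and Cs7g03720 with 42.9 and 11.4.

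Several abundant carbohydrate genes outside the wall were lower. The galactinol-sucrose galactosyltransferase Cs4g05490, of the raffinose family, had an FPKM of 1494 in CK30 against 354 in RD30. Plastid beta-amylase 1 (orange1.1t03470), which breaks down starch, had 862 and 321, and acid beta-fructofuranosidase (Cs5g09220), which splits sucrose in the vacuole, had 251 and 109. A beta-fructofuranosidase of the cell wall (Cs1g18220) was higher at 2.43 and 16.9. By count, 2 starch enzymes of 22 were called higher and 4 lower, and 2 of 23 sucrose and hexose enzymes were called higher and 4 lower. As given, each of these lists had 4 higher and 4 lower, so the excess of lower calls came from the stricter limit for higher. Of 9 trehalose enzymes 1 was called higher and 3 lower, against 3 and 3 as given. Among the lower ones was trehalose-phosphate phosphatase A (Cs9g14600) at 23.3 and 4.60. Sucrose synthase (Cs4g06850), with 924 and 540, was not called.

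Transporters of nitrogen differed in both directions. Of 24 nitrate and peptide transporters 6 were called higher and 4 lower. Among the higher ones, nitrate transporter 1.1 (Cs5g09050) had an FPKM of 1.85 in CK30 against 11.6 in RD30, high affinity nitrate transporter 2.7 (Cs2g27650) 2.22 and 16.3, and a nitrite transporter (Cs7g13190) 8.85 and 50.1. Among the lower ones, the peptide or nitrate transporter Cs8g12710 had 108 and 7.64. Lower were also 2 abundant amino acid carriers, amino acid permease 3 (Cs3g20070) with 344 and 38.6 and vacuolar amino acid transporter 1 (Cs6g21320) with 257 and 48.7. Over all 29 amino acid transporters the summed FPKM was 862 in CK30 against 369 in RD30, although 3 each of the 23 entered ones were called higher and lower. Metal, potassium and phosphate transporters had 6 of 35 called higher (17.1%, against 13.9% of all genes) and none lower. The metal transporter Nramp1 (orange1.1t02757) was among the higher ones, at 5.55 and 22.3. Of 12 magnesium transporters 1 was called higher and none lower, and of 13 aquaporins none was called.

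Calcium signalling genes were called lower more often than higher. Of 74 calcium signalling genes 18 were called lower (24.3%) and 6 higher (8.11%), while 45 did not reach 2-fold and the median log2 ratio was −0.03. The calcium pump 2 (Cs1g21430), named for the plasma membrane, had an FPKM of 37.9 in CK30 against 2.16 in RD30. The calcium-binding protein CML49 (Cs9g11850) had 219 and 83.3. Respiratory burst oxidase A (Cs5g02940), which makes superoxide outside the cell on calcium signals, had 121 and 7.46, or 4.02 less on the log2 scale. Mitogen-activated protein kinase 1 (Cs8g17360) had 385 and 81.1, while the upstream kinase MKK4 (orange1.1t02662) had 6.83 and 33.8. In all 1 of 22 kinases of these cascades was called higher and 3 lower. U-box proteins, which attach ubiquitin, had 9 of 31 called lower (29.0%) and 3 higher (9.68%), with PUB21 (Cs2g17820) at 290 and 38.1. The lists of calcium, U-box and MAP kinase genes were drawn up after the values had been seen.

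Receptors and resistance proteins differed from each other by count. Of 265 disease resistance proteins, intracellular receptors for pathogen molecules in most cases, 66 were called lower (24.9%) and 30 higher (11.3%). RGA3 (Cs7g16030) had an FPKM of 571 in CK30 against 82.5 in RD30, and RGA2 (orange1.1t01926) had 15.03 and 0.95. Such genes lie in clusters of close copies, so the value of 1 member is uncertain. Minus the median of genes of like level, 96 of the 265 were lower and 22 higher. Leucine-rich repeat (LRR) receptor kinases had 23 of 125 called higher and 24 lower, both above the background. The LRR kinase Cs2g31150 had 213 and 10.1, and the inactive LRR kinase Cs6g18280 had 175 and 27.3.

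Defence transcription factors and proteins went both ways by count. WRKY53 is a regulator of defence and senescence in Arabidopsis, and its 3 matches had an FPKM of 280, 204 and 187 in CK30 (orange1.1t00472, Cs5g02440 and Cs5g02450) against 64.4, 40.7 and 39.7 in RD30. These may be near-identical copies that share reads, so their values are uncertain singly. In total 4 of 22 WRKY factors were called higher and 5 lower, and of 26 NAC factors 4 higher and 3 lower, with NAC90 (Cs8g14700) at 204 and 33.0. Chitinases and other pathogenesis-related proteins had 5 of 47 called higher and 7 lower, but the lower ones held most of the transcript. Endochitinase orange1.1t05124 had 6891 and 2184 and chitinase Cs8g01840 5036 and 2142, and the list summed to 13180.3 in CK30 against 5634 in RD30. Thaumatin-like protein 1 (Cs1g25530), of the same list, was higher at 1.47 and 11.5. A dehydrin (Cs3g26970), a protein of cold and drought in no list, had 1856 and 648.

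Several families of secondary metabolism and detoxification had more than 13.9% of members, the share of all genes, called higher. Of 62 cytochrome P450 genes 19 were called higher (30.6%) and 1 lower (1.61%). CYP82C4 (Cs7g29920) had an FPKM of 3.33 in CK30 against 41.4 in RD30, and CYP89A2 (Cs7g15470) had 15.3 and 89.9. Glutathione S-transferases had 12 of 34 called higher and none lower, and UDP-glycosyltransferases 15 of 43 higher and 4 lower. GSTF9 (Cs7g18550) had 7.14 and 40.9 and UGT84B2 (Cs8g04930) 17.3 and 82.9. Phenylpropanoid and lignin enzymes had 18 of 69 called higher and 3 lower, and carotenoid enzymes 7 of 27 higher and 1 lower, with prolycopene isomerase (orange1.1t01907), which turns prolycopene into all-trans lycopene, at 4.16 and 20.2. The most abundant members were little different, caffeic acid 3-O-methyltransferase (orange1.1t04194) with 1819 and 1617 and glutathione S-transferase U17 (Cs7g04600) with 348 and 396.

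Terpene and flavonoid genes did not share a direction. Of 22 terpene synthases 3 were called higher and 4 lower. Limonene synthase 1 (Cs3g04360), which makes the main oil of citrus peel, had an FPKM of 237 in CK30 against 537 in RD30 and was 2-fold higher only as given. Gamma-terpinene synthase (Cs8g14120) had 192 and 38.5, and a germacrene D synthase (orange1.1t04360) had 7.97 and 35.1. Of 47 flavonoid enzymes 8 were called higher and 4 lower. Chalcone synthase (Cs2g14720), the entry enzyme, had 2460 and 1806, and a flavonoid 3'-monooxygenase (orange1.1t03164) had 9.24 and 45.5.

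Genes that act on proteins after synthesis differed by class. F-box proteins, which choose the targets of ubiquitin ligases, had 20 of 115 members called higher (17.4%) and 4 lower (3.48%). The kelch-repeat F-box protein Cs6g12920 had an FPKM of 1.71 in CK30 against 26.5 in RD30, and F-box protein SKIP28 (Cs2g17200) had 0.84 and 11.03. Relative to genes of like level the family stood at 13 higher and 7 lower, near the background. Of 155 ubiquitin ligases, with the U-box proteins counted among them, 16 were called higher (10.3%) and 17 lower (11%), among them BOI-related ligase 1 (Cs2g10710), of a family that restrains gibberellin and defence responses in Arabidopsis, with 2.16 and 22.5, and ATL6 (Cs3g13300), a defence ligase of Arabidopsis, with 211 and 106. Of 66 proteases 5 were called higher and 7 lower, with the abundant aspartic proteinase PCS1 (Cs6g17090) at 403 and 182 and a subtilisin-like protease (Cs4g07340) at 340 and 141. DnaJ proteins and chaperonins, partners of HSP70 and folding cages, had 7 of 43 called higher (16.3%, against 13.9% of all genes) and none lower. Their most abundant gene (Cs7g23510) had 793 and 590.

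Kinase and phosphatase families and surface lipid genes completed the picture. Receptor kinases other than the LRR group had 20 of 69 members called higher (29.0%) and 14 lower (20.3%), both above the shares of all genes, with a G-type lectin kinase (Cs5g08140) at 102 and 32.4 and a cysteine-rich kinase 10 (Cs2g07430) at 4.26 and 14.8. Protein phosphatases 2C, several of which restrain abscisic acid signalling, had 4 of 33 called higher and 3 lower. Number 37 (Cs7g31880) had 28.02 in CK30 against 121 in RD30, and number 25 (Cs8g20420) had 164 and 70.4. GDSL lipases, some of which build cutin, had 5 of 29 called higher (17.2%, against 13.9% of all genes) and 1 lower. Their most abundant gene (Cs2g28140) had 318 and 232. Lipid-transfer proteins had 1 of 9 called lower and none higher, DIR1 (orange1.1t01576) standing at 197 and 135. Among 48 ABC transporters, pumps for many small molecules, 6 were called higher (12.5%) and none lower. Minus the median 6 were higher and 5 lower, and the most abundant one (Cs4g11190) had 1116 and 651. Class III peroxidases, which act in the wall, had 1 of 12 called higher and 2 lower, and peroxidase 3 (Cs5g32270) had 309 and 293.5.

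A few named genes were listed at 0 in 1 library. In CK30, zinc finger protein 6 (Cs2g12790) was listed at 0 with an FPKM of 19.8 in RD30, and an alcohol dehydrogenase-like gene (orange1.1t05469) with 6.25. In RD30, a beta-ureidopropionase (orange1.1t06032) was listed at 0 with 7.02 in CK30, and a tyrosine decarboxylase (Cs1g01690) with 4.05. Altogether 106 genes at 1 or more in RD30 were listed at 0 in CK30, and 32 the reverse.

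Lists of markers for other tissues differed in what they showed. The list of seed proteins had 4 entered genes and none was called, its abundant member Lea5 (Cs9g04210) having an FPKM of 223 in CK30 against 257 in RD30. The list of pollen and anther proteins had 2 entered genes, and all 6 of its genes summed to 2.90 and 2.40. The list of vascular proteins had 7 entered genes, and all 12 of its genes summed to 177 in CK30 against 80.4 in RD30. Of these sums xylem cysteine proteinase 1 (Cs8g01170), the 1 member called lower, held 153 and 53.6. The part of vascular tissue in the other results was not tested. YABBY2 (Cs8g14260), a marker of the outer side of lateral organs, had 27.6 and 33.5. Of 9 genes of the circadian clock 2 were called higher and none lower, PRR95 (orange1.1t00571) with 19.2 and 81.9 and APRR5 (Cs5g16360) with 0.45 and 4.04. No source used here gave the hour of collection, so its part in the differences was not tested.

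The differences of 30 DAFB were followed in the same genes at the later stages, in libraries that the calls had not used. At 80 DAFB, 4.28% of all entered genes were called higher and 4.86% lower, and at 170 DAFB 8.14% and 8.71%. Of the 2421 genes higher in RD30, 2169 entered at 80 DAFB, where 223 (10.3%) were called higher and 111 (5.12%) lower. At 170 DAFB 308 of 2015 (15.3%) were higher and 324 (16.1%) were lower, with a median log2 ratio of −0.13. Of the 1104 genes lower in RD30, 958 entered at 80 DAFB, where 295 (30.8%) were again called lower and 32 (3.34%) higher, with a median of −0.65. At 170 DAFB 156 of 917 (17.0%) were lower and 105 (11.5%) higher. At 80 DAFB the share again lower among them, 30.8%, stood above the 4.86% of all genes, a difference that was not tested.

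Single genes took different courses. Carbonic anhydrase (Cs2g28060), at an FPKM of 4.50 and 156 at 30 DAFB, had 340 in CK80 and 433 in RD80. TCP4 (Cs2g15820) had 57.0 in CK80 and 52.5 in RD80, and the FLOWERING LOCUS C match (Cs5g10810) had 264 and 260. In these 3 genes the value of CK30 stood below both libraries of 80 DAFB, and the peels no longer differed 2-fold. Respiratory burst oxidase A (Cs5g02940) had 21.0 in CK80 and 7.89 in RD80, and the LRR kinase Cs2g31150 had 5.06 and 1.95. Both were again more than 2-fold lower, at far lower levels than in CK30. Mitogen-activated protein kinase 1 (Cs8g17360) was lower at 80 DAFB as well, with 261 and 100. Endochitinase orange1.1t05124 reversed, with 24.5 in CK80 and 153 in RD80.

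**Figure D4:**
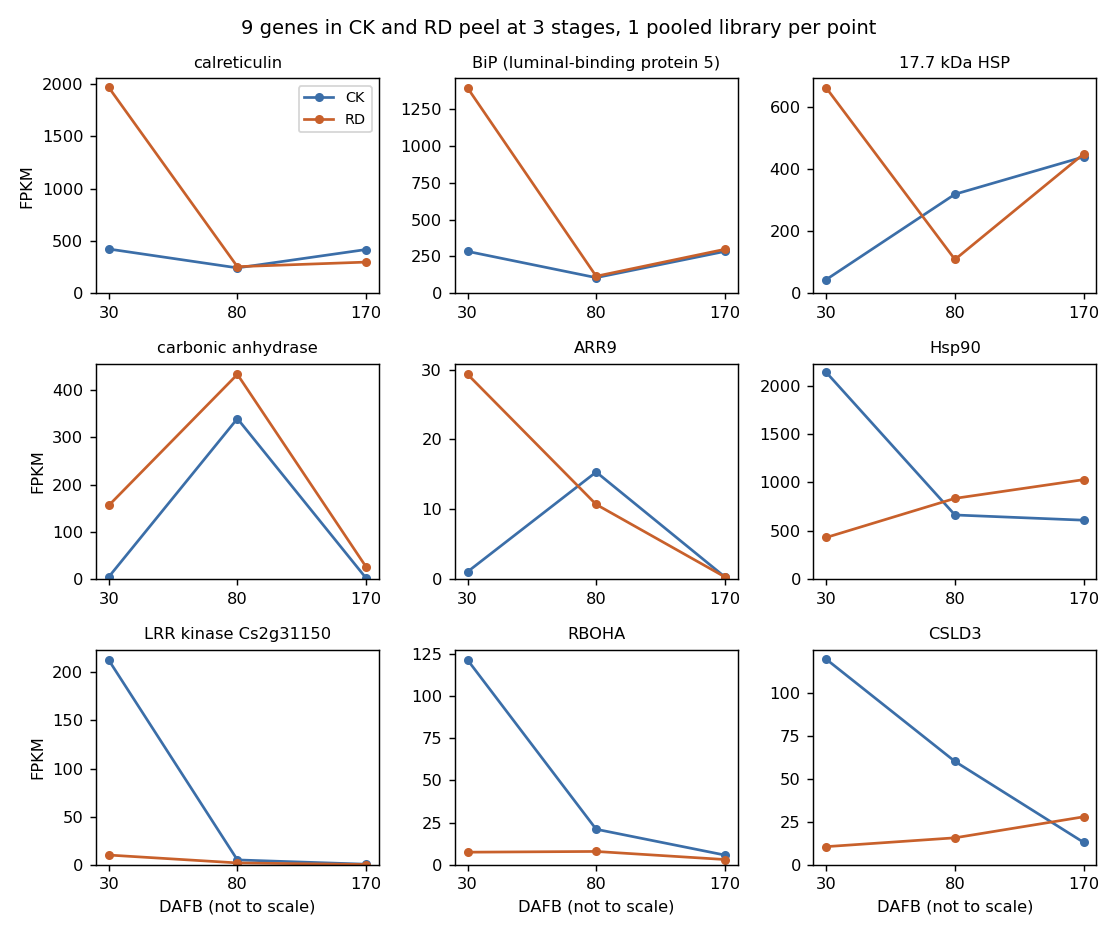
FPKM (linear axis from 0, its own scale in each panel) of 9 genes in the CK and RD libraries at 30, 80 and 170 DAFB, 1 pooled library per point and the stages spaced evenly. Calreticulin and luminal-binding protein (BiP) separate at 30 DAFB and lie together at 80 DAFB, and the LRR kinase Cs2g31150 is high in CK30 alone.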

How the data were processed

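RNA was taken from pooled peel, and 6 libraries (CK and RD at 30, 80 and 170 DAFB) were sequenced on an Illumina instrument. The authors removed adapter, ambiguous and low-quality reads, aligned the rest to the sweet orange (Citrus sinensis) genome with Bowtie and BWA, and deposited FPKM per gene, computed by RSEM per the submitters' processing notes. Versions and the gene annotation are not given in the sources used here. As the reads are of mandarin and the genome of sweet orange, genes that differ between the species may be counted low in both peels. Read counts per gene were not used here, so the precision of a single FPKM is unknown. In 1037 genes with an FPKM of 0.1 to 0.6 in both libraries the most frequent log2 ratio was 0. The authors' columns of ratios and test results were not used.

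Log2 ratios were computed with Python 3.11.15, pandas 2.3.3 and NumPy 2.4.6, with no pseudocount. A gene needed an FPKM of 1 in the higher library and a 2-fold ratio. The calculation was tested on simulated data. No primer or gene was matched to a genome. Genes were grouped by the names of their deposited protein matches. The summed FPKM of a list covers all of its genes, entered or not. The comparison and the lists were chosen with earlier results of these data known. Dof factors, raffinose family enzymes, DnaJ proteins and chaperonins, ankyrin repeat proteins and protein phosphatases 2C formed lists of unknown timing. These may have been drawn up after the values had been seen. Named were, for each list, its most abundant gene and up to 3 called genes per direction with the highest FPKM, the 15 largest ratios per direction at an FPKM of at least 10 in the higher library, the 10 largest gains and losses in FPKM, up to 5 genes per direction listed at 0, and the 21 genes that the study names. Not all genes that this rule gives are described. Other scalings, pseudocounts, FPKM minimums and a stricter fold were tried.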

Additional observations from a re-analysis of the deposited data

Results flagged for a closer look

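Several named genes differed at least 2-fold between the peels in opposite directions at 30 DAFB and at a later stage, on both scales. With 1 pooled library per condition, none of these differences between stages was tested.

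Chaperones held many of them. The heat shock protein Cs4g05880 had a log2 ratio of RD to CK of 4.98 at 30 DAFB, but of −2.15 and −1.82 at 80 and 170 DAFB. The small heat shock proteins Cs5g18500 (7.35 and −2.33) and Cs6g07320 (3.90 and −1.55), the abundant Cs4g05780 (3.30 and −1.49) and the HSP70 orange1.1t02795 (3.82 and −1.22) turned between 30 and 80 DAFB. The heat shock cognate Cs8g18260 turned the other way, from −1.55 at 30 DAFB to 1.83 at 170 DAFB.

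Defence genes turned in both directions. Chitinase Cs8g01840 had −1.23, 3.33 and 3.31 at 30, 80 and 170 DAFB, and endochitinase orange1.1t05124 had −1.66 at 30 DAFB and 2.64 at 80 DAFB. NAC90 (Cs8g14700, −2.63 and 1.18) and the inactive LRR kinase Cs6g18280 (−2.68 and 1.07) turned between 30 and 170 DAFB, and ERF017 (Cs4g06410) between 30 and 80 DAFB (−2.06 and 1.24). Thaumatin-like protein 1 (Cs1g25530) had 2.97 at 30 DAFB and −1.98 at 170 DAFB, and the kinase MKK4 (orange1.1t02662) 2.31 and −2.09.

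Wall and sugar genes that turned by 170 DAFB were cellulose synthase-like D3 (Cs3g09000, −3.50 and 1.1), pectinesterase Cs5g33450 (−1.43 and 1.91), BRU1 (orange1.1t02385, −1.62 and 1.52), HOTHEAD Cs7g03720 (−1.92 and 1.42), acid beta-fructofuranosidase (Cs5g09220, −1.21 and 1.76) and polygalacturonase Cs9g13990 (1.66 and −2.06). The beta-fructofuranosidase of the wall (Cs1g18220) had 2.80, −1.05 and −1.64 at the 3 stages. Xylem cysteine proteinase 1 (Cs8g01170) went from −1.52 at 30 DAFB to 2.19 at 170 DAFB.

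Hormone, transport and metabolic genes that were higher at 30 DAFB and lower at 170 DAFB were ARGOS (Cs5g20520, 2.15 and −1.97), cytokinin dehydrogenase 5 (Cs3g25370, 1.67 and −1.30), the nitrite transporter Cs7g13190 (2.50 and −2.92), Nramp1 (orange1.1t02757, 2.0 and −1.63), UGT84B2 (Cs8g04930, 2.26 and −1.15), an isoflavone 2'-hydroxylase (Cs1g22200, 4.01 and −3.78) and a RING and CHY zinc finger protein (Cs8g15610, 4.79 and −1.25). The alcohol dehydrogenase-like orange1.1t05469, listed at 0 in CK30, had −3.22 at 170 DAFB. The clock gene APRR5 (Cs5g16360) went from 3.17 at 30 DAFB to −1.53 at 80 DAFB. An aspartic proteinase (Cs6g17090, −1.15 and 1.47) and a subtilisin-like protease (Cs4g07340, −1.27 and 2.57) turned by 170 DAFB.

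Among genes with little or doubtful annotation, Cs8g18360 (4.53 and −1.23) and Cs4g05770 (3.40 and −1.47) turned between 30 and 80 DAFB, and Cs3g21160 (−1.56 and 1.04) between 30 and 170 DAFB.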

How the results depend on the processing

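The count of genes at least 2-fold higher in RD30, 4458 as given, was 2421 minus the median of all genes, 2419 after a trimmed mean of log2 ratios, 2803 with a minimum FPKM of 5, 1165 at 4-fold, and 2191 minus the median of genes of like level. It was 6556 with no minimum FPKM, 5835 scaled to the ACTIN gene and 3123 scaled to the upper quartile. The count of lower genes, 1104 as given, was 1873, 1874, 872, 350 and 1770 under these settings, and 1980 with no minimum FPKM, 889 scaled to ACTIN and 1498 scaled to the upper quartile. The share of higher genes was 80.15% as given, 56.38% minus the median, 67.58% scaled to the upper quartile of each library, 86.78% scaled to the ACTIN gene, and 55.31% relative to genes of like level. Counts fell with the stricter fold and the higher minimum by construction. The median log2 ratio of 0.43 as given was 0.18 scaled to the upper quartile and 0.63 scaled to ACTIN.

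Among the 87 lists, 14 medians moved by over 1.5-fold relative to genes of like level, among them those of TCP factors (1.12), ACC oxidase homologs (1.04) and Dof factors (0.55), and the median of the 4 laccases reversed from 1.08 to −0.34 with no minimum FPKM. The laccases were therefore not described. The laccase and pollen lists held no gene at a minimum FPKM of 5. For 192 genes, those described here with a value above 0 in both libraries included, the ratios were recomputed under the scalings and pseudocounts tried. None that differed 2-fold as given changed sign. That result is no check, as a pseudocount cannot turn a ratio and the median shift of a scaling was at most 0.46. Relative to genes of like level, 38 of the 192 ratios moved by over 1.5-fold. With pseudocounts of 0.5 and 1 FPKM the ratios of low genes shrank by construction. Leaving out a replicate could not be tried with 1 library per condition. No paired analysis was possible because each condition had 1 pooled library. An FPKM near 1 limits how firmly a ratio can be read, and the spread between pools of fruit is not known.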

Other observations

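Among the largest gains and losses of FPKM were genes whose protein match carries no function. Cs8g18360 had an FPKM of 107 in CK30 against 2475 in RD30, and stood at 634 in CK80 against 271 in RD80, the same turn as in several small heat shock proteins. Cs8g19490 had 92.7 and 975, and Cs8g19530 had 487 and 1567. Their identifiers flank that of Cs8g19510, a class I small heat shock protein with 180 and 511, as given by the numbering alone. Next to the heat shock protein Cs4g05780, at 524 and 5163, the gene Cs4g05770, named as a methyltransferase (NSUN5-like), had 152 and 1595. Reads shared between neighbors could not be checked in the files used here. Of the unnamed genes that were lower, Cs3g21160 had 6227 and 2110 and Cs7g29010 had 1226 and 147.

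Ankyrin repeat proteins, a family with roles in membrane signalling and defence, had 6 of 36 members called higher and 7 lower. The lower ones included Cs9g15570 (10.4 and 0.44), Cs9g15500 (16.6 and 1.49) and orange1.1t05586 (67.1 and 7.70). The RNA helicase SDE3 (Cs3g11620), which takes part in RNA silencing in Arabidopsis, had 183 in CK30 against 9.01 in RD30. The galactose oxidase-like gene Cs3g25730 had 145 and 7.32, and the L-ascorbate oxidase homolog Cs8g01960 had 255.0 and 12.1. All 3 had their highest value of the 6 libraries in CK30.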
